A study of Eumeta variegata with 6 samples.

Results

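Proteins that store and carry iron were examined in the heads of male and female bagworm moths. They were found in the deposited table of assembled transcript sequences by searching the protein names for ferritin, transferrin, mitoferrin, frataxin, cytoplasmic aconitate hydratase, zinc transporter ZIP13 and 4 further terms. The search matched 21 of 41283 sequences. Of these, 19 carry the name of an iron protein: 8 transferrins, 3 ferritins, 3 cytoplasmic aconitate hydratases, 2 frataxins, 2 mitoferrins and 1 ZIP13. The other 2 regulate pyruvate dehydrogenase and were matched only because the word "acetyl-transferring" in their names begins like transferrin. The 4 terms that matched no sequence were iron regulatory, natural resistance-associated macrophage, malvolio and multicopper oxidase.

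The animals were bagworms labelled Eumeta variegata in the sample records and Clania variegata in the series text, and the RNA came from heads. There were 3 male and 3 female libraries, stranded and made from mRNA, and the study was directed at neuropeptides and their receptors. The labels give sex and tissue for each library; age, stage, strain and treatment are not among them. They also do not tell whether libraries of one sex were made from different animals or from pools, so the p-values given here cover only the spread between these libraries, which may be technical.

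Iron is needed by insects for respiration and for many enzymes, yet free iron is toxic, so it is bound at each step. Insect ferritin is a shell of heavy and light chains that, unlike the mammalian form, is largely routed through the secretory pathway and the hemolymph; in Drosophila melanogaster, ZIP13 moves iron into that pathway. Transferrin carries iron in the hemolymph, mitoferrin brings it into mitochondria, and frataxin takes part there in building iron-sulfur clusters, while cytoplasmic aconitase can switch to an RNA-binding form, iron regulatory protein, that acts on ferritin mRNA.

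Levels are given in FPKM, fragment counts divided by the length of the sequence and the size of the library, as the authors computed them. The sexes were compared with limma on log2(FPKM + 1), and a difference on this scale, males minus females, understates the fold change of sequences with low FPKM. A sequence is said to have risen or fallen, or to have been called, where its Benjamini-Hochberg adjusted p over all 35198 sequences tested was below 0.05. Over these sequences 7.11% were called, with 4.40% higher in males (1549) and 2.70% higher in females (952). With libraries scaled by the median of ratios, 1323 had higher levels in males and 1330 in females. The median log2 difference of all sequences was 0.05, and with that scaling it was -0.01.

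The libraries were similar in total, with sums between 480295 and 492028 FPKM and 30100 to 32360 sequences at 1 FPKM or more. The read depth behind these values is unknown. Names of nervous system and eye proteins were present in every library: Syntaxin-1A, a membrane fusion protein of synapses, had a mean of 40.7 FPKM and Opsin-1, a light receptor, 5.55. Summed over 37 sequences matched by such names the level was 250.3 to 265.4 FPKM in males and 232.7 to 249.3 in females. Of 27 tested, 1 was higher in males and 1 in females, and 19 had log2 differences above 0. Values of the sexes did not overlap for 13 with males higher and 2 with females higher, beside 18.2% and 12.0% of all tested sequences. The sum includes looser name matches, such as CUGBP Elav-like family member 1 (mean 34.7 FPKM) and Extended synaptotagmin-2 (30.5). The 1 call toward females was this CUGBP Elav-like family member 1 sequence (TRINITY_DN5098_c0_g1_i22_2, log2 difference -0.46), so it rests on a looser match. The 1 call toward males was synaptotagmin 1 (TRINITY_DN14085_c0_g1_i12_2, log2 difference 0.48). Markers of the fat body and hemolymph, where ferritin and transferrin are also made or carried, summed to 82.5 to 93.7 FPKM in males and 153.6 to 185.3 in females over 19 sequences, with 2 of 14 tested higher in males and 5 higher in females. Hemocyte markers summed to 183.5 to 192.4 FPKM in males and 162.6 to 180.7 in females (20 sequences, of which 17 were tested and 2 were higher in males), and midgut markers to 257.2 to 274.5 and 237.4 to 245.0 (19 sequences, of which 16 were tested, 2 higher in males and 1 in females). Of the 2 midgut calls toward males, 1 (TRINITY_DN1227_c0_g1_i4_2) was matched only because its name, Antichymotrypsin-2, contains chymotrypsin. It is named for an inhibitor and not for a midgut enzyme, and the midgut sum includes it. Over all sequences tested, 4.40% were higher in males and 2.70% in females. No marker sequence was at 0 in every library, but neither was any other sequence of the deposited data, so this says nothing about the tissues. The libraries also divide by which sequence names, those ending in 1 or in 2, are more often listed at 0. Male 2, male 3 and female 2 form one set (set A, with 2.96% to 5.42% of names ending in 1 at 0), and male 1, female 1 and female 3 the other (set B, 10.7% to 13.2%). Since a set has only 1 library of one sex, differences within a set are given as values with no test.

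Among the 20 iron-rule sequences that passed the expression filter, 6 were called, which is 30.0% beside the 7.11% of all sequences. The 4 that were higher in females were ferritin heavy chain, ferritin subunit, ZIP13 and mitoferrin. The 2 that were higher in males were a transferrin and a frataxin-like sequence. The median log2 difference of the 20 was 0.01, beside 0.05 for all sequences. Values of the sexes did not overlap for 6 of the 20 with males higher and 6 with females higher, beside 18.2% and 12.0% of all tested sequences (30.2% in either direction). Ferritin heavy chain and ZIP13 were called in all 16 alternative fits, while each of the other 4 calls ended when libraries were left out or when the library split entered the model.

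**Figure D1:**
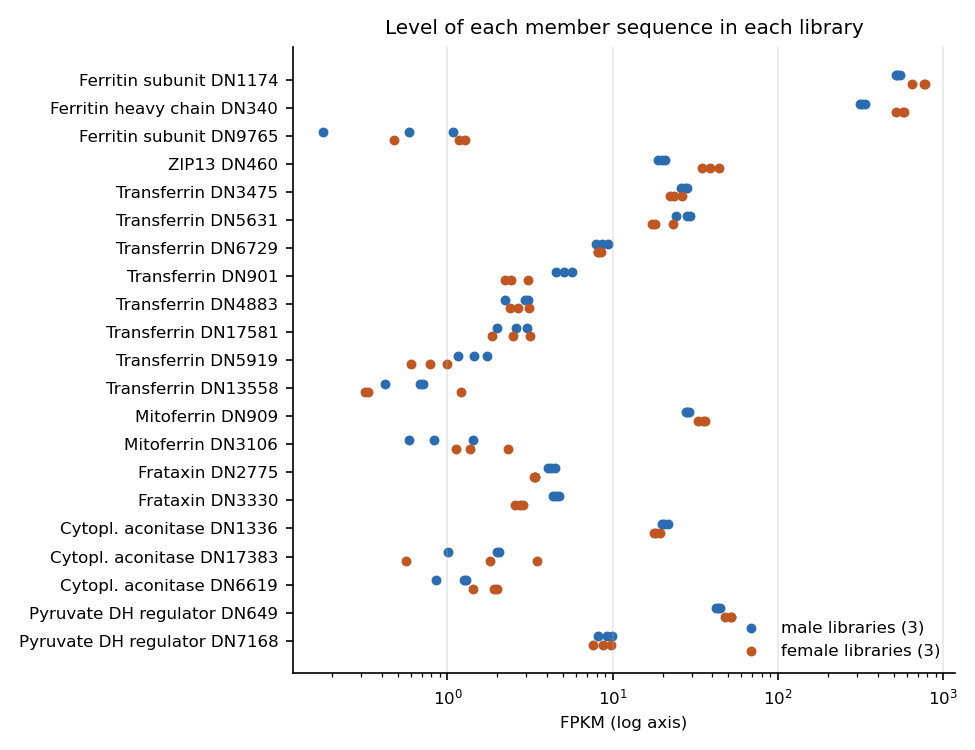
Level of each of the 21 sequences in each library, in FPKM on a log axis, with males and females in different colours and sequences ordered by role. The ferritin subunit and ferritin heavy chain lie between 312.2 and 774.1 FPKM, far above every other sequence drawn, and the female points of both lie to the right of the male points.

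Both abundant ferritin chains were higher in female heads, and the heavy chain differed more. The ferritin heavy chain sequence (TRINITY_DN340_c0_g2_i4_2), named for the chain that oxidises iron as it enters the shell, had 323.6, 312.2 and 336.6 FPKM in males 1, 2 and 3 and 516.2, 568.3 and 578.3 in females 1, 2 and 3. Every female library was above every male library, and the gap between the sexes was wider than the spread within either. The means were 324.1 ± 12.2 FPKM in males and 554.3 ± 33.3 in females (SD, n = 3 each), a female to male ratio of 1.71. The log2 difference was -0.77 (95% interval -0.95 to -0.60, SE 0.07, limma adjusted p = 0.00405), and it lay between -0.84 and -0.73 in the alternatives. It was -0.81 in set A and -0.75 in set B.

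The ferritin subunit sequence (TRINITY_DN1174_c0_g1_i5_2), whose best match is a ferritin subunit of Eumeta japonica, another bagworm, and whose Swiss-Prot match is one of the mosquito Aedes aegypti, was the most abundant sequence of the group and ranked 80 of 41283 by mean FPKM. It had 547.7, 523.8 and 520.5 FPKM in males 1, 2 and 3 and 645.7, 760.1 and 774.1 in females 1, 2 and 3. The male libraries lay close together, the female libraries were all higher, and female 1 was the lowest of the females. The means were 530.7 ± 14.8 FPKM and 726.6 ± 70.5 (SD, n = 3 each), a ratio of 1.37, with a log2 difference of -0.45 (95% interval -0.68 to -0.22, SE 0.09, limma adjusted p = 0.0440). The call ended without male 1, male 2, male 3, female 2 or female 3, with the library split in the model (limma adjusted p = 0.103) and with quantile scaling (limma adjusted p = 0.0771), and just missed with no filter (limma adjusted p = 0.0501). The difference was -0.54 in set A and -0.37 in set B.

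A further ferritin sequence (TRINITY_DN9765_c0_g1_i1_1) has the same best protein match as the ferritin subunit and no recognised domain. It lay between 0.176 and 1.28 FPKM in the 6 libraries, with a log2 difference of -0.30 (95% interval -1.11 to 0.50, limma adjusted p = 0.650). How reads were divided between it and the abundant subunit is uncertain. Summed over the 3 ferritin sequences, the level was 836.6 to 871.5 FPKM in males and 1162 to 1354 in females, with means of 855.4 ± 17.6 and 1282 ± 104 (SD, n = 3 each).

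The ratio of the heavy chain to the subunit restates the levels above and is not a further result. Which sequence is the heavy chain rests on its name alone, and the names do not give the subunit's chain type. The subunit was above the heavy chain in all 6 libraries, and the heavy chain to subunit ratio of FPKM was 0.591, 0.596 and 0.647 in males 1, 2 and 3 and 0.800, 0.748 and 0.747 in females 1, 2 and 3. The ratios of the sexes did not overlap, with means of 0.611 ± 0.031 in males and 0.765 ± 0.030 in females (SD, n = 3 each). This ratio was looked at after the levels were seen and was not tested.

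In bulk tissue, fewer cells of a type and less RNA per cell cannot be told apart. The summed level of the fat body and hemolymph markers was higher in every female library, but single markers went both ways, with log2 differences below 0 for 8 of 14 tested and above 0 for 6. Apolipophorin-3 (TRINITY_DN912_c0_g1_i2_2), a lipid carrier, had 3.05 ± 0.55 FPKM in males and 38.5 ± 7.9 in females, and Arylphorin subunit alpha (TRINITY_DN18247_c0_g1_i1_1), a storage protein, 0.072 ± 0.031 and 27.0 ± 1.7 (SD, n = 3 each). The 2 called toward males were a 27 kDa hemolymph protein-like sequence (TRINITY_DN1320_c0_g1_i12_1) with 38.5 ± 0.2 FPKM in males and 32.0 ± 2.1 in females, and a 27 kDa hemolymph protein (TRINITY_DN7096_c0_g2_i5_1) with 3.96 ± 0.60 and 0.852 ± 0.278. The markers' part in the ferritin difference, and in the other differences toward females given here, was not tested.

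**Figure D2:**
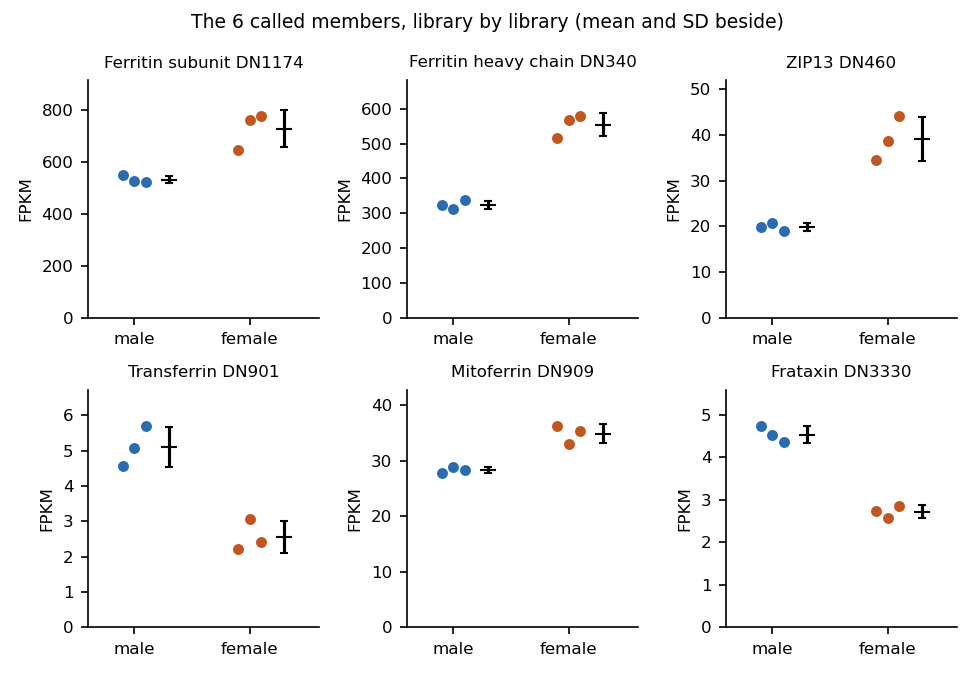
The 6 called sequences library by library, in FPKM, with the mean and SD of each sex beside the points and each axis starting at 0. Males and females do not overlap in any panel; ferritin heavy chain, ferritin subunit, ZIP13 and mitoferrin are higher in females, and the transferrin and the frataxin-like sequence are higher in males.

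The ZIP13 sequence (TRINITY_DN460_c0_g1_i17_2) was also higher in females. Its Swiss-Prot match is Zip99C of Drosophila melanogaster, the transporter that supplies iron to the compartments where ferritin is assembled, and it carries a ZIP zinc transporter domain. It had 19.9, 20.8 and 18.9 FPKM in males 1, 2 and 3 and 34.5, 38.7 and 44.1 in females 1, 2 and 3. The male values were within 2 FPKM of each other, and all female values were well above them and more spread. The means were 19.9 ± 0.9 and 39.1 ± 4.8 FPKM (SD, n = 3 each), a ratio of 1.97, with a log2 difference of -0.94 (95% interval -1.16 to -0.71, SE 0.09, limma adjusted p = 0.00474). In the alternatives the difference lay between -1.02 and -0.85 with limma adjusted p from 0.00359 to 0.0387, and it was -0.93 in set A and -0.94 in set B.

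The transferrins, which bind iron in the hemolymph, were far less abundant than the ferritins. Of 7 tested, 1 was called, toward males, beside 4.40% of all sequences in that direction. The sum of the 8 transferrin sequences was 69.7 to 78.7 FPKM in males and 56.9 to 66.6 in females. All 7 tested had log2 differences above 0, toward males, but 3 of them (TRINITY_DN6729_c0_g1_i20_2, TRINITY_DN4883_c0_g1_i14_2 and TRINITY_DN17581_c0_g1_i4_2) turned below 0 with median-of-ratios and with quantile scaling. Values of the sexes did not overlap for 3 of the 7, all with males higher, beside 18.2% of all sequences tested, and with 7 sequences nothing is read from this count.

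The called transferrin (TRINITY_DN901_c0_g1_i6_1) was a low-abundance sequence, ranked 11884 by mean FPKM. It had 4.57, 5.09 and 5.70 FPKM in males 1, 2 and 3 and 2.21, 3.08 and 2.41 in females 1, 2 and 3. All males were above all females. The means were 5.12 ± 0.57 and 2.57 ± 0.45 FPKM (SD, n = 3 each), a male to female ratio of 1.995, and the log2 difference was 0.78 (95% interval 0.41 to 1.16, SE 0.16, limma adjusted p = 0.0371). Leaving out any single library ended the call, as did the library split (limma adjusted p = 0.0750) and quantile scaling (limma adjusted p = 0.0525). The difference was 0.65 in set A and 0.75 in set B.

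The 2 abundant transferrins did not pass the test. The one whose Swiss-Prot match is the transferrin of the hawkmoth Manduca sexta (TRINITY_DN3475_c0_g1_i7_1) had 28.0, 27.4 and 25.8 FPKM in males 1, 2 and 3 and 26.1, 22.2 and 23.4 in females 1, 2 and 3. Female 1 lay above male 3, so the sexes overlapped, and the log2 difference was 0.18 (95% interval 0.00 to 0.35, limma adjusted p = 0.212). The other (TRINITY_DN5631_c0_g1_i3_2) had 29.4, 28.1 and 24.2 FPKM in males 1, 2 and 3 and 23.1, 17.3 and 18.1 in females 1, 2 and 3. Here the lowest male was just above the highest female, and the log2 difference was 0.47 (95% interval 0.16 to 0.77, limma adjusted p = 0.0823). It was called in a single alternative, without female 1 (limma adjusted p = 0.0335). Among the 8 transferrins these are neighbours in the order by mean FPKM, and their male means, 27.1 ± 1.2 and 27.2 ± 2.7, lie within their SD.

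The remaining transferrins were lower. TRINITY_DN6729_c0_g1_i20_2 had 7.95 to 9.33 FPKM over the 6 libraries, with a log2 difference of 0.05 (95% interval -0.15 to 0.25). TRINITY_DN4883_c0_g1_i14_2, TRINITY_DN17581_c0_g1_i4_2 and TRINITY_DN5919_c0_g1_i1_1 lay between 0.603 and 3.16 FPKM in single libraries, with log2 differences of 0.01, 0.02 and 0.45 (limma adjusted p from 0.326 to 0.987). TRINITY_DN13558_c0_g1_i1_2 did not pass the filter and had 0.416 to 0.712 FPKM in males and 0.317 to 1.21 in females. TRINITY_DN4883_c0_g1_i14_2 and TRINITY_DN13558_c0_g1_i1_2 have the same best protein matches as the 2 abundant transferrins, so how reads were divided within these pairs is uncertain.

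**Figure D3:**
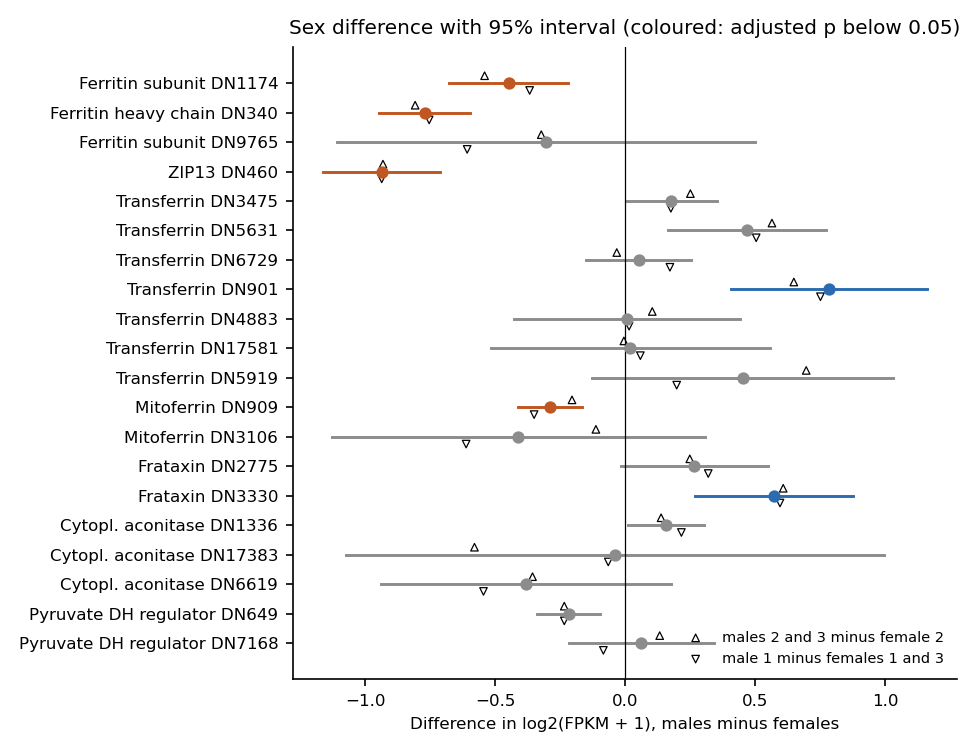
Male minus female difference in log2(FPKM + 1) with its 95% interval for the 20 tested sequences, with called ones coloured and the differences within library sets A and B drawn as separate marks. ZIP13 at -0.94 and ferritin heavy chain at -0.77 lie farthest to the left, and the transferrin TRINITY_DN901_c0_g1_i6_1 at 0.78 farthest to the right. Values of the sexes do not overlap for the 6 called sequences, so their direction within each set was fixed in advance.

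The mitoferrin sequence (TRINITY_DN909_c0_g1_i9_2), a carrier of the inner mitochondrial membrane that brings in iron, was higher in females by a small amount. It had 27.8, 28.8 and 28.2 FPKM in males 1, 2 and 3 and 36.2, 33.0 and 35.3 in females 1, 2 and 3. The spread within each sex was narrow and the sexes did not overlap. The means were 28.3 ± 0.5 and 34.8 ± 1.6 FPKM (SD, n = 3 each), a ratio of 1.23, with a log2 difference of -0.29 (95% interval -0.41 to -0.17, SE 0.05, limma adjusted p = 0.0262). The call ended without male 1, male 2, male 3, female 1 or female 3 and with the library split (limma adjusted p = 0.0790), and the difference was -0.20 in set A and -0.35 in set B. A second mitoferrin sequence (TRINITY_DN3106_c0_g2_i1_1) lay between 0.589 and 2.31 FPKM, with a log2 difference of -0.41 (95% interval -1.13 to 0.31, limma adjusted p = 0.477).

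The 2 frataxin-like sequences had higher values in males, and 1 was called. Frataxin supports iron-sulfur cluster assembly in the mitochondrion. Both sequences share 1 best protein match and carry, beside a frataxin-like domain, another domain of unknown function (DUF4495), and how their reads were divided is uncertain. The called one (TRINITY_DN3330_c0_g1_i1_1) had 4.73, 4.51 and 4.35 FPKM in males 1, 2 and 3 and 2.74, 2.56 and 2.86 in females 1, 2 and 3. The sexes were separated by more than 1 FPKM. The means were 4.53 ± 0.19 and 2.72 ± 0.15 FPKM (SD, n = 3 each), a male to female ratio of 1.67, with a log2 difference of 0.57 (95% interval 0.27 to 0.88, SE 0.13, limma adjusted p = 0.0482). It was lost whichever library was left out, with no filter (limma adjusted p = 0.0555), with median-of-ratios scaling (limma adjusted p = 0.0587), with quantile scaling (limma adjusted p = 0.0576) and with the library split (limma adjusted p = 0.0960). The difference was 0.61 in set A and 0.59 in set B.

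The other frataxin-like sequence (TRINITY_DN2775_c0_g1_i11_2) had 4.26 ± 0.21 FPKM in males and 3.37 ± 0.03 in females (SD, n = 3 each), again without overlap. Its log2 difference of 0.27 did not pass the test (95% interval -0.02 to 0.55, limma adjusted p = 0.242).

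No cytoplasmic aconitate hydratase was called. The abundant one (TRINITY_DN1336_c0_g1_i3_1), which the authors' annotation also assigns to the iron regulatory protein family, had 21.7, 20.5 and 19.8 FPKM in males 1, 2 and 3 and 17.7, 18.3 and 19.4 in females 1, 2 and 3. The male libraries were all above the female libraries, but the gap between male 3 and female 3 was small. The log2 difference was 0.16 (95% interval 0.01 to 0.30, limma adjusted p = 0.187). The other 2 aconitases lay between 0.564 and 3.50 FPKM, with log2 differences of -0.04 for TRINITY_DN17383_c0_g1_i1_2 and -0.38 for TRINITY_DN6619_c0_g2_i1_1 (limma adjusted p = 0.968 and 0.390).

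The 2 sequences matched through a word alone have no known role in iron transport. The pyruvate dehydrogenase kinase sequence (TRINITY_DN649_c0_g1_i17_1), which switches that enzyme off, had 43.3 ± 1.1 FPKM in males and 50.6 ± 2.3 in females (SD, n = 3 each). Its log2 difference of -0.22 missed the threshold (limma adjusted p = 0.0556) but passed it with median-of-ratios scaling (limma adjusted p = 0.0221) and without female 1 (limma adjusted p = 0.0361). The phosphatase that reverses the kinase (TRINITY_DN7168_c0_g1_i1_2) had 9.11 ± 0.94 and 8.70 ± 1.07 FPKM (limma adjusted p = 0.807).

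Beyond their names, the 21 sequences differ in how complete their annotation is. A Pfam protein domain was recorded for 14 of them, and all 6 called sequences were among these. The 7 with no domain had mean levels of at most 2.52 FPKM. Of these 7, 1 (TRINITY_DN13558_c0_g1_i1_2) was not tested and 0 were called, beside 7.11% of all sequences tested. With so few sequences, nothing is read from this count. The best protein match was in the bagworm Eumeta japonica for 18. The mean level was at least 10 FPKM for 8 sequences and below it for 13, and 4 best protein matches were each shared by 2 sequences.

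**Figure D4:**
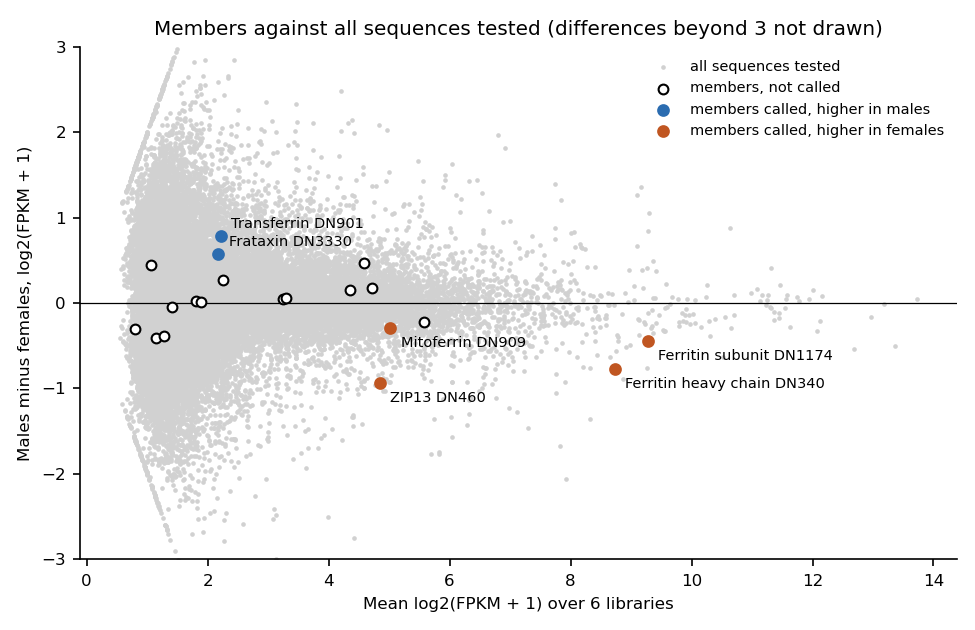
Male minus female difference in log2(FPKM + 1) against mean log2(FPKM + 1) for all sequences tested, with the iron-rule sequences drawn over them and differences beyond 3 not drawn. The ferritin heavy chain and ferritin subunit stand at the far right, where few sequences lie, at -0.77 and -0.45, and ZIP13 at -0.94 lies below most sequences of its level.

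The wider handling of iron was described through 4 further lists of names: iron-sulfur cluster assembly, heme metabolism, iron reduction and regulation of ferritin turnover, and zinc and copper transport. Of 70 sequences tested, 7 were higher in females and 0 in males by limma, beside 2.70% and 4.40% of all sequences (7.11% called in either direction). Some names were matched in error, and without these misleading matches 7 of 65 tested were called. At an unadjusted p below 0.05 there were 20 of the 70 in either direction, beside 8214 of the 35198 sequences tested, a similar share. The median log2 difference was -0.08, beside 0.05 for all sequences, with 46 of the 70 below 0. Of the 7 calls, those of 5-aminolevulinate synthase and porphobilinogen deaminase held in all 16 alternatives, and with the library split 2 sequences were called.

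In the list of heme synthesis, breakdown and export, 3 of 16 tested were higher in females, beside 2.70% of all sequences. Without misleading name matches the count was 3 of 15. Heme is made from glycine in a chain of enzymes that ends with the insertion of iron. The sequence named 5-aminolevulinate synthase (TRINITY_DN1580_c0_g1_i1_1), the first and rate-limiting enzyme of that chain, had 93.4, 86.2 and 84.7 FPKM in males 1, 2 and 3 and 262.2, 208.5 and 181.8 in females 1, 2 and 3. All females were far above all males, and female 1 was the highest. The means were 88.1 ± 4.6 and 217.5 ± 40.9 FPKM (SD, n = 3 each), with a log2 difference of -1.28 (95% interval -1.60 to -0.96, SE 0.13, limma adjusted p = 0.00531), -1.28 in set A and -1.22 in set B.

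Porphobilinogen deaminase (TRINITY_DN4418_c0_g1_i1_1), which joins the building blocks of the heme ring, had 81.2 ± 3.2 FPKM in males and 139.4 ± 12.8 in females (SD, n = 3 each). Its log2 difference was -0.77 (95% interval -0.95 to -0.59, SE 0.07, limma adjusted p = 0.00436). Heme oxygenase 1 (TRINITY_DN2468_c0_g1_i1_1), which breaks heme down and frees its iron, had 13.1 ± 1.0 and 17.7 ± 0.9 FPKM (log2 difference -0.41, limma adjusted p = 0.0295). It was no longer called when male 1, male 2, male 3, female 2 or female 3 was left out, or with the library split (limma adjusted p = 0.0821).

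Among iron-sulfur cluster genes, 3 of 25 tested were higher in females, beside 2.70% of all sequences. They were LYR motif-containing protein 4 (TRINITY_DN7861_c0_g1_i3_1; 13.2 ± 0.5 FPKM in males and 20.3 ± 2.4 in females), cysteine desulfurase (TRINITY_DN3664_c0_g1_i1_1; 50.4 ± 2.5 and 63.3 ± 0.4) and bolA-like protein 3 (TRINITY_DN3217_c0_g1_i1_1; 52.3 ± 1.8 and 63.3 ± 1.0), each SD with n = 3. Cysteine desulfurase supplies the sulfur, LYR motif-containing protein 4 binds and stabilises it, and bolA-like protein 3 acts late, in cluster transfer. Their log2 differences were -0.58, -0.33 and -0.27 (limma adjusted p = 0.0188, 0.0163 and 0.0204), and each call ended without male 1, male 2 or female 2 and with the library split. The calls of LYR motif-containing protein 4 and bolA-like protein 3 also ended without male 3, and those of cysteine desulfurase and bolA-like protein 3 without female 3. The most abundant sequence of the list (TRINITY_DN12583_c0_g1_i2_2), named for the scaffold IscU on which clusters are built, had 911.1 ± 62.6 and 1005 ± 127 FPKM. It was not called (log2 difference -0.14, limma adjusted p = 0.580). No Pfam domain was recorded for it or for the LYR motif-containing protein 4 sequence, so both rest on their names.

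In zinc and copper transport, 1 of 23 tested was called, toward females, beside 2.70% of all sequences in that direction. The list also holds names of no metal transporter, such as Alpha-centractin, and without misleading matches the count was 1 of 20. Zinc transporter 7 (TRINITY_DN13225_c0_g1_i1_1), named for a carrier that moves zinc into the secretory pathway, had 16.7 ± 1.4 FPKM in males and 23.4 ± 2.5 in females (SD, n = 3 each; log2 difference -0.46, limma adjusted p = 0.0457). Its call held in 5 of the 16 alternatives and ended without male 1, male 2, male 3, female 1 or female 2. In iron reduction and ferritin regulation, 0 of 6 were called by limma (0 of 5 without misleading matches), beside 7.11% of all sequences. An unadjusted limma p below 0.05 was found for 2 of the 6, beside 8214 of all 35198 tested. The most abundant sequence of this list, mitochondrial aconitate hydratase (TRINITY_DN457_c0_g3_i2_2), an iron-sulfur enzyme of the citric acid cycle, had 74.1 ± 2.9 and 68.0 ± 9.5 FPKM (log2 difference 0.13, limma adjusted p = 0.512).

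**Figure D5:**
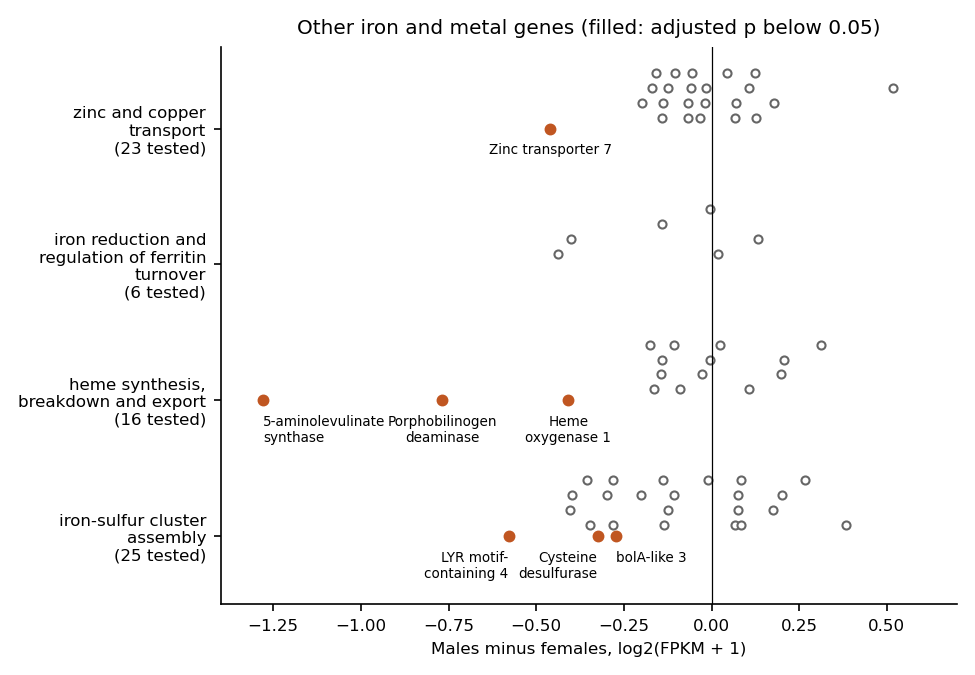
Male minus female difference in log2(FPKM + 1) for the 70 tested sequences of the 4 wider lists, 1 point per sequence, with called ones filled and named. All 7 filled points lie on the female side, from bolA-like protein 3 at -0.27 to 5-aminolevulinate synthase at -1.28.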

How the data were processed

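RNA sequencing of heads gave 1 table with a value for each assembled sequence in each of 6 libraries, 3 per sex. The deposited values are FPKM as calculated by the authors; this unit is given by the title of the deposited table, not by its header. Trimmomatic, HTSeq and R 3.2.0 appear, with no role given, per the submitters' processing notes. Settings of the aligner and assembler were not stated in the labels or headers, and no coordinates were used. Names were taken as the authors' NR and Swiss-Prot descriptions, which come from similarity. Values below 1 FPKM showed no whole-read steps between libraries (no bin of ratios, 0.02 wide on the log2 scale, took more than 4.75% of them), so depth is unknown and no count test or counting interval was used.

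Sequences with at least 1 FPKM in at least 3 libraries were kept. Values were turned into log2(FPKM + 1) and tested with limma 3.58.1 in R 4.3.3 (mean-variance trend, two-sided, no block, Benjamini-Hochberg over all 35198 kept, threshold 0.05). The fit was tested on simulated data. The iron members, lists, markers and tests were chosen with earlier results of these data known. Values in every library are given for called members and the most abundant of each role. From each wider list the called sequence with the largest difference is named, and otherwise the most abundant; the further called sequences were added after their values were seen.

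Alternatives were pseudocounts of 0.1 and 0.5, no filter, a filter on mean FPKM, 3 other scalings, robust shrinkage, the replicate number as a block, the library split as a term, each library left out, and names from NR alone. Counts without misleading name matches, and differences within library sets, were added after seeing the data.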

Additional observations from a re-analysis of the deposited data

How the results depend on the processing

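The number of iron sequences called was 6, and it was 3 with quantile scaling, 2 with the replicate block, 2 with the library split and 2 to 5 with 1 library left out. Those higher in males, 2, became 1 with no filter, 1 with median-of-ratios scaling, 0 with quantile scaling, 0 with the replicate block, 0 with the library split and 0 to 1 with 1 library left out. Those higher in females, 4, became 2 with the replicate block, 2 with the library split and 2 to 4 with 1 library left out. The wider lists, 7, gave 2 with the replicate block, 2 with the library split and 2 to 6 with 1 library left out. Over all sequences 2501 became 631 with the replicate block, 1135 with the library split and 822 to 1776 with 1 library left out. Fewer libraries or a further model term leave fewer residual degrees of freedom. Names from NR alone gave 4 iron calls, and without the 2 word matches the count stayed at 6 of 18.

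Whether replicate numbers pair the libraries is not known. Deviations of same-numbered libraries correlated at 0.106, 0.116 and -0.051. Males 1 and 2 correlated best with the female of the same number, and male 3 with female 2 (0.086). Every pair within library set A or B was above 0, also male 1 with female 3 (0.084). Every pair across the sets was below 0, from -0.184 to -0.038, and male 3 with female 3 is such a pair. These correlations thus follow the library split, and pairing by number cannot be read from them. With the block, ferritin heavy chain and ZIP13 were the iron sequences called.

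No called sequence reversed. With 1 library left out this was fixed in advance, since the values of the sexes do not overlap for the called sequences named here. Of the uncalled ones, TRINITY_DN17383_c0_g1_i1_2 had 0.0352 with a pseudocount of 0.1 and -0.437 to 0.326 with 1 library left out. With median-of-ratios and quantile scaling, TRINITY_DN6729_c0_g1_i20_2 had -0.0127 and -0.0329, TRINITY_DN4883_c0_g1_i14_2 -0.0460 and -0.0303, TRINITY_DN17581_c0_g1_i4_2 -0.0321 and -0.0271, and TRINITY_DN7168_c0_g1_i1_2 -0.00236 and -0.0191. With 1 library left out these ranged from -0.00072 to 0.103, -0.0597 to 0.110, -0.117 to 0.152 and -0.0186 to 0.141. The cause was not tested. Unknown read depth limits what can be said of sequences near 1 FPKM.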

Other observations

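Some sequences carry a domain of an iron or copper protein but not a name the search used. They were picked after their values were seen. A sequence named Lactotransferrin (TRINITY_DN126_c0_g1_i8_1), with a transferrin domain and a Swiss-Prot match to the membrane-bound melanotransferrin, had 34.6, 34.5 and 32.3 FPKM in males 1, 2 and 3 and 29.3, 25.3 and 26.5 in females 1, 2 and 3. It was as abundant as the largest transferrins and higher in males in every library (log2 difference 0.31, limma adjusted p = 0.0463). The call held in 5 of the 16 alternatives. It ended without male 1, male 2, male 3, female 2 or female 3, with a pseudocount of 0.1, no filter, median-of-ratios scaling, robust shrinkage, the replicate block and the library split.

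Multicopper oxidases, the family of laccases and of enzymes that oxidise iron, were found by domain in 5 sequences. Of these 5, 1 was called by limma, toward males, beside 4.40% of all sequences in that direction (7.11% in either). An unnamed one (TRINITY_DN6641_c0_g1_i4_1) had 4.79 ± 0.60 FPKM in males and 2.01 ± 0.55 in females (SD, n = 3 each; log2 difference 0.95, limma adjusted p = 0.0387), and its call ended without male 1, male 2, male 3, female 2 or female 3 and with the library split (limma adjusted p = 0.0869). The other 4 were not called, and they did not all lean the same way. Log2 differences were above 0 for the laccase-2-like sequence TRINITY_DN23568_c0_g1_i1_1 (0.14), the laccase-5 sequence TRINITY_DN8307_c0_g1_i1_1 (0.26) and the putative laccase-9 sequence TRINITY_DN7081_c0_g1_i1_1 (0.20). The most abundant of the 5, the unnamed TRINITY_DN3875_c0_g1_i1_2, leaned toward females (-0.23). Laccase 2 is known in insects for tanning the cuticle.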
